A study of Mus musculus with 18 samples.

Results

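The mir-106b-25 and mir-106a-363 clusters are paralogs of the mir-17-92 polycistron, and 7 of their precursors were described here across 18 small RNA libraries. The members were taken by name, as the entries mmu-mir-106b, mmu-mir-93, mmu-mir-25, mmu-mir-106a, mmu-mir-18b, mmu-mir-20b and mmu-mir-363 (the prefix is left out below) among 1006 miRNA entries of the deposited count table. All libraries came from Baf3, a mouse pro-B cell line grown with interleukin-3, whose cells in every group carried fluorescent reporters for mutated miR-15a and miR-16 and were stably transduced with Cas9 and a guide RNA. Guides against Rag1 gave the control group (genotype label Rag1_KO), guides against Safb1 and Safb2 gave the group called SAFB here (label Safb1 KO, Safb2 KO), and guides against Erh gave the group called ERH (label Erh KO). The treatment label of all libraries was untreated. Each genotype had 2 guides with 3 batches of each, which made 6 libraries a genotype. Cells were selected with puromycin, sorted as polyclonal populations by derepression of the dsRed reporter of miR-15a and regrown, so a library averages over edited cells that were chosen for that phenotype. How the control cells were sorted is not given in the sources used here. The libraries of a guide share an edited population, and p-values therefore measure a spread that is partly technical. Small RNA libraries do not measure Safb, Safb2 or Erh messenger RNA, and the loss of the targeted genes was not checked here.

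A miRNA selects its targets mainly through its seed, bases 2 to 8 of the mature strand. The mir-17-92, mir-106b-25 and mir-106a-363 clusters encode overlapping seed families, and their products are known to repress brakes on the cell cycle and cell death, such as Cdkn1a and Bcl2l11. In B lymphopoiesis mir-17-92 is known to be needed for the survival of early B cells. A primary transcript is cut by the Microprocessor, formed by Drosha and Dgcr8, and SAFB proteins and ERH are known to associate with it and to aid the cutting of poor hairpins that lie beside a good one on the same transcript. This makes neighbouring hairpins of a shared transcript a natural comparison.

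The mature sequences of the members are shown because the seed places each member in a family. Few bases separate most of them from their mir-17-92 relatives. Sequences are from RefSeq on build GRCm38.p6, with the seed in capitals, and all 7 members were matched by name. The miR-17 seed was shared by 4 members:
miR-106b-5p: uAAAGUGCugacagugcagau
miR-93-5p: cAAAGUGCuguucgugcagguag
miR-106a-5p: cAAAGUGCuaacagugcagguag
miR-20b-5p: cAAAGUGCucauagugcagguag
Their mir-17-92 counterparts with that seed are miR-17-5p and miR-20a-5p:
miR-17-5p: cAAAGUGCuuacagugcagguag
miR-20a-5p: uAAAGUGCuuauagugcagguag
The miR-25 and miR-92 seed was carried by 2 members, beside their counterpart miR-92a-3p:
miR-25-3p: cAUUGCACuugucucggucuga
miR-363-3p: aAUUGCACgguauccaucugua
miR-92a-3p: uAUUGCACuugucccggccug
The remaining member has the miR-18 seed of miR-18a-5p:
miR-18b-5p: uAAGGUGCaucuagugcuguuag
miR-18a-5p: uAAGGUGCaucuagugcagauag

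With positions counted from the 5′ end and the mir-17-92 base given first, miR-106a-5p differs from miR-17-5p by U10A alone. miR-20b-5p differs from miR-20a-5p by U1C and U10C, and miR-18b-5p from miR-18a-5p by A18U and A20U. Over the bases both strands have, miR-25-3p differs from miR-92a-3p by U1C, C14U and C18U. miR-363-3p differs from miR-92a-3p at 11 of the 21 bases compared. miR-93-5p differs from miR-20a-5p by U1C, U10G, A11U and A13C, and miR-106b-5p differs from miR-17-5p by C1U, U10G and G20A. How reads that match several entries were assigned is not given in the sources used here, so the split between close entries is uncertain, most of all for mir-106a beside mir-17. Among 1679 mature mouse miRNAs in the RefSeq table, the miR-17 seed occurred in 7 and the miR-25 and miR-92 seed in 6.

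In the GENCODE M21 annotation of GRCm38, which may not be the build the authors used, the hairpins of mir-106b, mir-93 and mir-25 lie on the minus strand of chromosome 5 in intron 13 of the protein-coding Mcm7 transcript of 15 exons. Mcm7 encodes a subunit of the replicative DNA helicase. Mir106b spans chr5:138165737-138165818, Mir93 chr5:138165523-138165610 and Mir25 chr5:138165321-138165404, with 126 and 118 bases between neighbours. A retained-intron transcript of Mcm7 with 2 exons holds Mir93 and Mir25, but not Mir106b, within its exon 1. The hairpins are shown because they lie in 1 intron of the protein-coding transcript and were counted at different levels, with the main mature strand in capitals:
Mir106b: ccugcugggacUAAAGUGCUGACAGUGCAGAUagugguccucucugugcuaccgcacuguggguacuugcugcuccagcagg
Mir93: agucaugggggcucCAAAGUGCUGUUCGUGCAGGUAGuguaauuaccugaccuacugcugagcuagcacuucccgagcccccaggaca
Mir25: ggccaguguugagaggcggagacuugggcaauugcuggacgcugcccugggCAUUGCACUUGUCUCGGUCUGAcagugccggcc
The mature strand lies on the 5′ arm in Mir106b and Mir93 and on the 3′ arm in Mir25. The minimum free energy computed with RNAfold was -41.0 kcal/mol for Mir106b, -46.3 for Mir93 and -35.9 for Mir25. Per base, these were more stable than 83.7%, 88.2% and 59.4% of 1005 mouse hairpins, in that order.

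The other cluster lies on the minus strand of chromosome X within 875 bases. Mir106a is at chrX:52742503-52742567, Mir18b at chrX:52742331-52742413, Mir20b at chrX:52742113-52742192 and Mir363 at chrX:52741693-52741767. Mir106a overlaps 5 bases of an exon of the noncoding gene Kis2, and the other 3 members lie in no annotated host. The copies Mir19b-2 and Mir92-2 stand between Mir20b and Mir363. Their mature strands equal those of the mir-17-92 copies and share the entries mir-19b and mir-92a, so they cannot be read apart and are not among the members.

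Library totals ranged from 2699323 to 4470073 counts, and 273 of the 1006 entries passed the filter on low counts. Haematopoietic miRNAs summed to 148779 to 175293 CPM, counts scaled to a common library size, in control, 153396 to 170992 in SAFB and 125393 to 158074 in ERH, with 6 of 6 listed entries of the table detected, led by mir-142a. Muscle entries summed to at most 6.40 CPM, with mir-133b, mir-206 and mir-208a at 0 counts in every library. Epithelium entries, with 6 of 6 detected, summed to 145 to 202 CPM in control, 195 to 224 in SAFB and 147 to 183 in ERH. Fibroblast and smooth muscle entries summed to 39.4 to 58.7, 37.5 to 64.0 and 39.6 to 62.2 CPM in the same order. Neuron-associated entries summed to 1843 to 2248 CPM in control, 2395 to 2965 in SAFB and 2704 to 4452 in ERH. Of these, mir-128 averaged 2026, 2476 and 2428 CPM in the same order. mir-218 averaged 22.3, 214 and 877 CPM and mir-9 averaged 9.06, 65.9 and 260 CPM, while mir-124 reached at most 6 counts. In ERH the log2 differences from control were -0.23 for mir-142a (adjusted p = 0.0016 in edgeR) and -0.38 for mir-155 (adjusted p = 8.7e-05) on the TMM scale, and 0.0735 and -0.0697 under total counts and 0.047 and -0.0972 under spike-ins, none of these past the threshold. Among other haematopoietic entries, mir-223 averaged 9612, 17416 and 9216 CPM in control, SAFB and ERH, with log2 differences from control of 0.86 (adjusted p = 4e-05 in edgeR) and -0.06 (adjusted p = 0.77). In the same order mir-181b averaged 1132, 192 and 730 CPM, mir-181a 3114, 4662 and 4119 CPM, mir-150 19.3, 4.91 and 9.29 CPM, and the liver marker mir-122 6.78, 11.6 and 17.1 CPM. Some of these markers thus differed between genotypes. In SAFB, mir-142a, mir-155 and mir-122 did not differ from control at the threshold (adjusted p = 0.38, 0.14 and 0.062 in edgeR). The part of the markers in the member results below was not tested. In bulk libraries, fewer cells of a type and less RNA per cell cannot be told apart.

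The chromosome 5 locus was strongly expressed, and the named members of the X-chromosome locus were at or near the limit of detection. Over all 18 libraries mir-93 collected 1568731 counts, which ranked it 8 of 1006 entries by mean CPM. mir-25 collected 1299067 counts and ranked 10. mir-106b collected 42683 counts and ranked 66, between 1667 and 3076 counts a library. The locus took 4.12% ± 0.224 (SD, n = 6) of all miRNA counts in control, 5.02% ± 0.319 in SAFB and 4.56% ± 0.301 in ERH. Counts of different miRNAs are not corrected for how well the library kit captures each, so the order of the entries describes counts and not molecules.

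On the X chromosome, mir-20b had 199 counts over all libraries, from 6 to 18 a library, and was the sole member of its locus to pass the filter. mir-106a had 77 counts, from 1 to 9 a library, and mir-18b had 5 counts, in 4 of 18 libraries. mir-363 had 0 counts in all 18 libraries, which allows a level of up to 0.0476 CPM over all libraries or 0.717 to 1.14 CPM in a single library, for counting error only. Expression of mir-18b in ERH, with 0 counts in 6 libraries, was not detectable at this depth. mir-6383, the remaining mature miRNA with the miR-17 seed, also had 0 counts.

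The low members were also set against the entries closest to them in sequence. Per 100000 counts of mir-17, mir-106a had 48.7 in control, 98.5 in SAFB and 98.5 in ERH, from 19, 27 and 31 counts. Single libraries overlapped, at 13.5 to 85.4, 66.7 to 159 and 57.4 to 188 in that order. On the TMM scale mir-17 itself was lower in SAFB and ERH, by log2 differences of -0.74 and -0.48. Per 100000 counts of mir-20a, mir-20b had 27.6, 30.2 and 25.3, and per 100000 counts of mir-18a, mir-18b had 10.7, 22 and 0. Whether the low counts are reads of the X-chromosome genes was not tested.

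**Figure D1:**
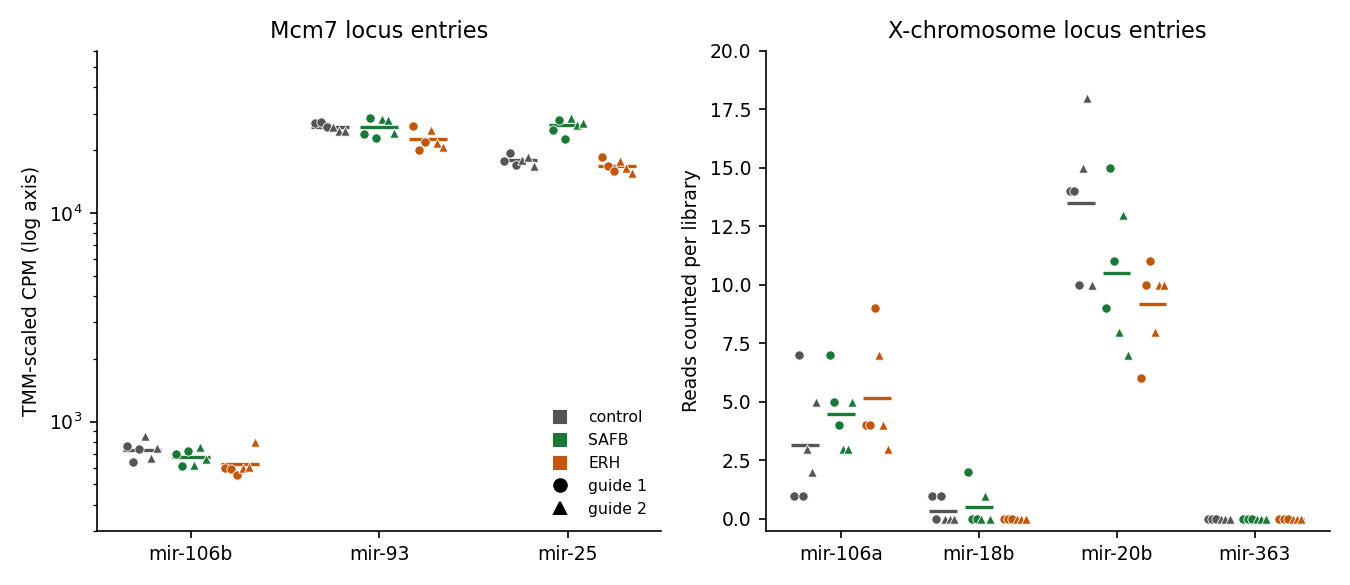
Levels of the 7 members in 18 libraries, as CPM scaled by trimmed mean of M-values on a log axis for the chromosome 5 entries and as counts per library for the X-chromosome entries, with points for libraries, shapes for guides and bars for genotype means. mir-25 stands higher in all SAFB libraries than in any control or ERH library, while mir-363 is at 0 throughout.

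mir-25 was the member whose level differed most clearly between genotypes. Its lowest, median and highest levels, in CPM on the TMM scale (trimmed mean of M-values), were 16896, 17877 and 19506 in control. They were 22622, 26711 and 28715 in SAFB, and 15564, 16646 and 18467 in ERH. Every SAFB library was thus above every control and ERH library, while the control and ERH libraries overlapped. Of the 4 members tested, mir-25 alone was called at an adjusted p under 0.05 in SAFB against control, where 56% of all tested entries were called and 30.8% were called higher, and it alone had libraries that did not overlap, as 36.6% of all entries did.

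In SAFB mir-25 was higher by 0.55 ± 0.0605 (SE, 6 libraries a group) on the log2 scale, or 1.47-fold, with an adjusted p of 4.4e-08 in edgeR's quasi-likelihood test. It rose in all 4 comparisons of a SAFB guide with a control guide, by 0.48 to 0.62, with adjusted p of 7.3e-06 to 0.00016. Within batches 1, 2 and 3 the differences were 0.587, 0.519 and 0.547. In ERH the difference from control was -0.09, with a 95% interval of -0.217 to 0.0327 and an adjusted p of 0.21. The direct comparison gave ERH 0.65 below SAFB (log2 difference -0.65, 95% interval -0.771 to -0.52, adjusted p = 1.8e-08 in edgeR), with no overlap, where 20.5% of all entries did not overlap and 39.6% were called.

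The choice of scale mattered for mir-25. With total counts in place of TMM, ERH was higher than control by 0.21 (adjusted p = 0.0015 in edgeR), beside a median over all tested entries that moved from -0.0608 to 0.236. With spike-ins that difference was 0.193 (adjusted p = 0.58). Scaled to spike-ins, the rise of mir-25 in SAFB was 0.288 (adjusted p = 0.3) beside a median over all entries of -0.23, and the ERH difference from SAFB was -0.0954 (adjusted p = 0.72) beside a median of 0.572. On that scale the control populations themselves differed. The mean log2 count of mir-25 per spike-in count was 2.49 for control guide 1 and 3.11 for control guide 2, 3.07 and 3.17 for the SAFB guides, and 2.69 and 3.28 for the ERH guides. SAFB thus stood above control guide 1 and near control guide 2 per spike-in, and a rise of mir-25 per amount of total RNA was not shown.

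mir-93, the next hairpin upstream, had no such rise. Its lowest, median and highest levels were 24641, 25924 and 27470 CPM in control, 22919, 25975 and 28452 in SAFB, and 20054, 21811 and 26019 in ERH. The 3 genotypes overlapped. The SAFB difference was -0.0038 on the log2 scale, with a 95% interval of -0.148 to 0.14 and an adjusted p of 0.98 in edgeR, so a change of the size seen for mir-25 lies outside that interval. Without the population of SAFB guide 1 the value was 0.216 (adjusted p = 0.021), beside a median over all entries of 0.189, and with the entries and TMM factors of the full data kept it was 0.0419 (adjusted p = 0.7). In ERH mir-93 was called lower on the TMM scale, by a log2 difference of -0.20 ± 0.0696 (SE; adjusted p = 0.017), and it was also lower than in SAFB, by -0.20 (adjusted p = 0.029), with both signs turned under total counts and spike-ins. The call against SAFB held in 18 of 18 fits without 1 library (11 of 18 with entries and TMM factors kept), but in 3 of 6 without 1 population and in 4 of 8 settings with all libraries. DESeq2 gave -0.168 (adjusted p = 0.052).

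mir-106b, the first hairpin of the intron, ranged from 643 to 850 CPM in control with a median of 744. It ranged from 613 to 752 in SAFB with a median of 681, and from 555 to 799 in ERH with a median of 600. All genotypes overlapped. The SAFB difference was -0.11 (95% interval -0.301 to 0.0726, adjusted p = 0.3), and the ERH difference was -0.23 ± 0.0902 (SE; adjusted p = 0.033 in edgeR), above 0 under total counts and spike-ins. ERH did not differ from SAFB at the threshold on the TMM scale (-0.12, adjusted p = 0.32), and the value turned to 0.15 under total counts (adjusted p = 0.24) and 0.427 under spike-ins (adjusted p = 0.13). In ERH, 5 libraries lay at 555 to 605 CPM and the library of guide 2, batch 3 at 799 CPM, where leaving it out gave -0.205 against SAFB (adjusted p = 0.047).

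The 3 members called in ERH against control, mir-106b, mir-93 and mir-20b of 4 tested, compare with 53.8% of all entries called, and none of them had libraries that did not overlap, as 37.4% of all entries did. Their direction or call depended on scaling. With total counts mir-106b was at 0.0788 and mir-93 at 0.101, and with spike-ins at 0.0528 and 0.092, none past the threshold. With edgeR's RLE size factors the values were -0.157 and -0.129 (adjusted p = 0.15 and 0.095), and with DESeq2 -0.156 and -0.129 (adjusted p = 0.15 and 0.13). mir-20b stayed below 0 in these settings, at -0.436 under total counts and -0.492 under spike-ins, with its call lost in each. The ERH calls of mir-106b and mir-93 held in 3 and 7 of 18 fits that left out 1 library and computed filter and TMM factors again, so that 279 to 287 entries were tested. With the 273 entries and the TMM factors of the full data kept, a setting chosen after seeing the data, they held in 9 and 17 of 18 fits without 1 library. Without 1 population they held in 1 and 2 of 6 fits with both computed again, and in 3 and 4 of 6 with both kept. Between single ERH and control guides, the adjusted p in edgeR was 0.025 to 0.59 for mir-106b. It was 0.05 to 0.27 for mir-93 and 0.098 to 0.4 for mir-20b. TMM factors, which set this scale, were 1.067 to 1.204 in ERH and 0.8884 to 0.9461 in control.

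**Figure D2:**
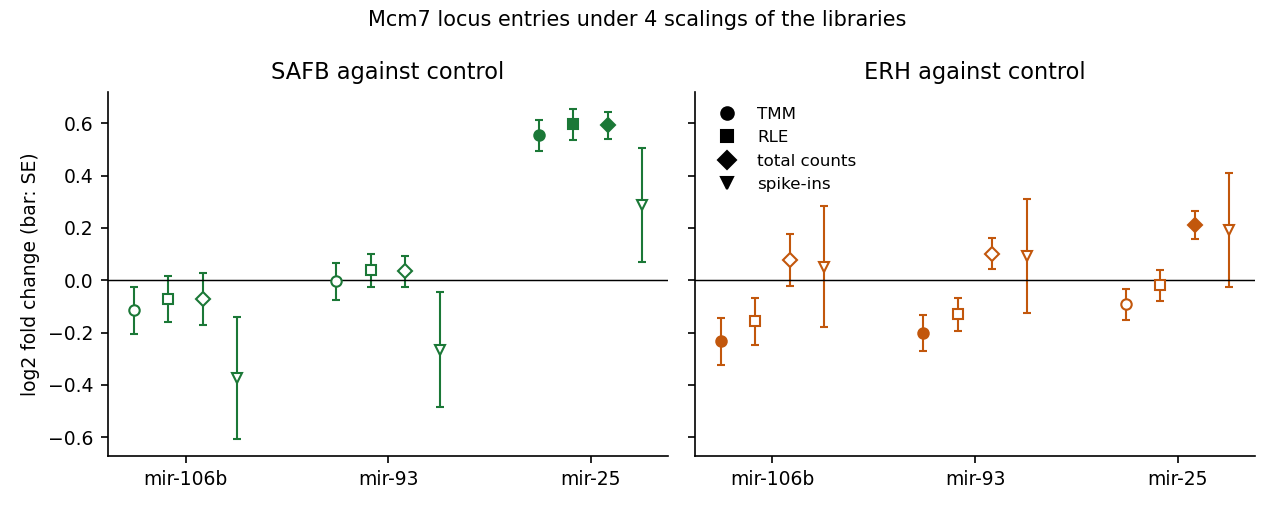
The log2 fold changes of mir-106b, mir-93 and mir-25 under 4 scalings of the libraries, with bars of 1 SE and filled symbols for an adjusted p under 0.05. mir-25 in SAFB lies between 0.554 and 0.597 under TMM, RLE and total counts and at 0.288 under spike-ins, while mir-106b and mir-93 in ERH lie below 0 under TMM and RLE and above it under total counts and spike-ins.

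Guides of the same genotype were also compared with each other. In guide 2 against guide 1, none of the 4 tested members was called in control, SAFB or ERH (adjusted p from 0.87 to 1 in edgeR, lowest unadjusted p 0.14), and DESeq2 also called none. Over all entries 0% were called in control, 0% in SAFB and 0.366% in ERH, with 7, 10 and 18 entries at an unadjusted p under 0.05. Spike-in scaling was the exception, with mir-25 higher in guide 2 by 0.635 in control and 0.606 in ERH with mir-93 by 0.561 and 0.649 and with mir-106b by 0.714 (adjusted p = 0.024 in edgeR) and 0.799 (adjusted p = 0.027), beside medians over all entries of 0.627 and 0.629.

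Ratios of counts within a library need no scaling between libraries, and they were used to compare neighbours of the intron. Of 14 pairs listed, 7 had both entries past the filter, which gave 21 exact two-sided permutation tests over 6 against 6 libraries, adjusted together. The smallest p that these allow is 0.0022.

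The ratio of mir-25 to mir-93 was 0.654 to 0.746 in the control libraries, 0.952 to 1.12 in SAFB and 0.707 to 0.836 in ERH. mir-25 counts exceeded mir-93 counts in 3 of 6 SAFB libraries and in 0 of 6 control and 0 of 6 ERH libraries. The SAFB ratios did not overlap those of either other group. By population, the mean ratios were 0.674 and 0.707 for the control guides, 1.01 and 1.03 for the SAFB guides, and 0.754 and 0.739 for the ERH guides. On the log2 scale the ratio was higher in SAFB than in control by 0.56 (exact permutation p = 0.0022, adjusted 0.0058) and lower in ERH than in SAFB, at -0.45 (p = 0.0022, adjusted 0.0058, exact permutation). The ERH difference from control was 0.11 (exact permutation p = 0.032, adjusted 0.061), and with permutation within batches as a replicate block its adjusted p was 0.022. Its call also passed without control guide 2, batch 2 (adjusted exact permutation p = 0.03) or without ERH guide 2, batch 1.

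The ratio of mir-106b to mir-93 did not pass any test. It was 0.0234 to 0.0327 in control, 0.0216 to 0.0317 in SAFB and 0.0231 to 0.0385 in ERH, which overlapped widely. The log2 differences from control were -0.10 in SAFB (exact permutation p = 0.37) and -0.03 in ERH (exact permutation p = 0.82). The ratio of mir-106b to mir-25 was lower in SAFB than in control by a log2 difference of -0.66 (exact permutation p = 0.0022, adjusted 0.0058), with no overlap. In ERH that difference was -0.14 (exact permutation p = 0.26), and ERH was higher than SAFB by 0.52 (p = 0.0022, adjusted 0.0058, exact permutation). As shares of the locus, mir-25 took 40.2% ± 1.2 (SD, n = 6) of counts in control, 49.8% ± 1.42 in SAFB and 42.1% ± 1.48 in ERH, and mir-93 took 58.2% ± 1.1, 48.9% ± 1.41 and 56.4% ± 1.58.

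**Figure D3:**
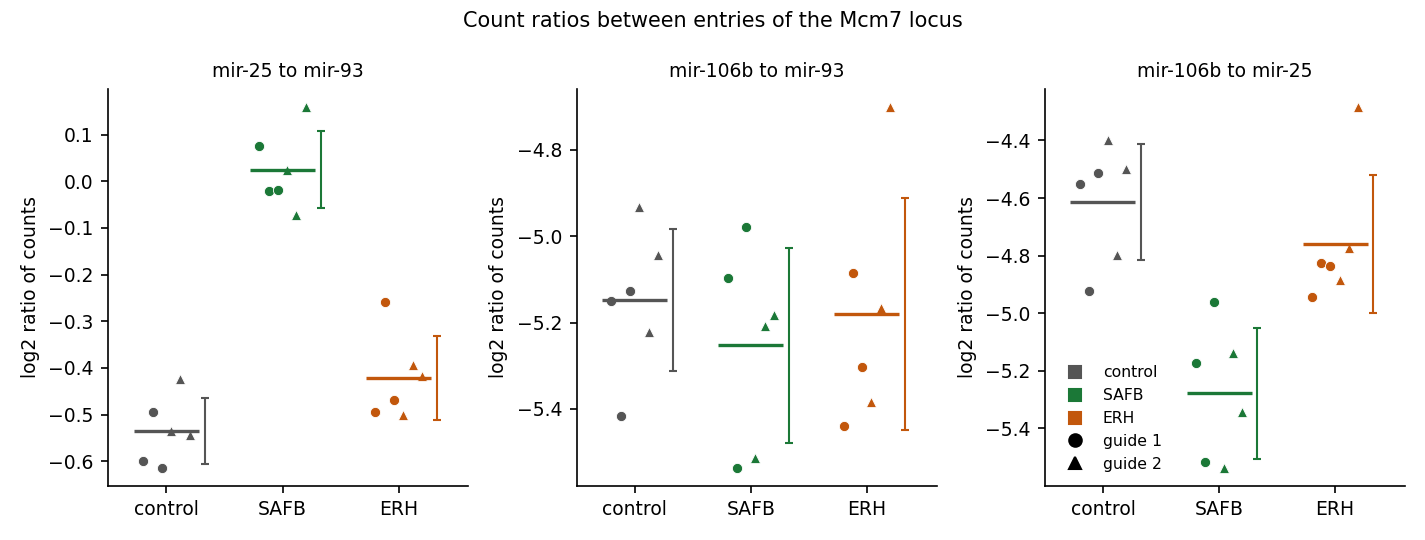
The log2 ratios of counts between the 3 entries of the chromosome 5 locus in each library, with bars for the mean and brackets for 1 SD over 6 libraries. The mir-25 to mir-93 ratio in SAFB centres at 0.0245, above all control and ERH libraries, whereas the mir-106b to mir-93 ratios of the 3 genotypes overlap.

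In SAFB the members of the chromosome 5 locus departed from the mir-17-92 entries with the same seed. In ERH mir-106b and mir-93 were also called lower on the TMM scale, with both calls lost under RLE, total counts, spike-ins and DESeq2. The ratio of mir-93 to mir-20a was still higher in ERH than in control (log2 difference 0.42, adjusted exact permutation p = 0.026), a call not held in every setting. The ERH ratios of mir-106b to mir-17 and mir-25 to mir-92a did not differ from control at the threshold. The 6 mir-17-92 entries, mir-17, mir-18a, mir-19a, mir-20a, mir-19b and mir-92a, were all called lower in SAFB, with log2 differences of -1.02 to -0.69, beside 25.3% of all entries called lower. All were called lower in ERH as well on the TMM scale, from -2.17 to -0.24, with mir-92a above 0 under total counts and spike-ins, beside 27.5% of all entries. The SAFB calls of all 6 held in every alternative setting, and the ERH calls of mir-18a and mir-19a did too. The ERH calls of mir-17 and mir-19b were lost under total counts (-0.173 and -0.123, adjusted p = 0.14 and 0.2 in edgeR) and under spike-ins (-0.182 and -0.127), and that of mir-20a under spike-ins alone (-0.355). The ERH call of mir-92a held in 1 of 8 settings with all libraries, in 1 of 18 fits without 1 library (7 of 18 with entries and TMM factors kept) and in 1 of 6 without 1 population. It was lost with a replicate block (-0.238, adjusted p = 0.052), with RLE size factors (-0.165, adjusted p = 0.19), with DESeq2 (-0.165, adjusted p = 0.22), under total counts (0.071) and under spike-ins (0.0395). The comparisons share the control libraries and are given side by side without an overlap. The median over the 6 was -0.761 in SAFB and -0.554 in ERH, and the median over the 4 tested members was -0.059 and -0.217, with all entries at 0.00825 and -0.0608.

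Against mir-17, mir-106b had a ratio of 0.298 to 0.450 in control, 0.486 to 0.639 in SAFB and 0.348 to 0.589 in ERH. All SAFB libraries were above all control libraries, and the log2 ratio was higher by 0.63 (exact permutation p = 0.0022, adjusted 0.0058). ERH overlapped control (0.24, exact permutation p = 0.14) and was below SAFB by -0.39 (exact permutation p = 0.022, adjusted 0.046). That last call was lost in 10 of 12 fits without 1 library, held without SAFB guide 1, batch 2 or ERH guide 2, batch 3, and its value was -0.239 without ERH guide 1.

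The ratio of mir-93 to mir-20a was 1.497 to 2.03 in control, 2.15 to 3.45 in SAFB and 1.80 to 2.83 in ERH. It was higher by 0.73 in SAFB (exact permutation p = 0.0022, adjusted 0.0058), with no overlap. In ERH it was higher by 0.42 (exact permutation p = 0.011, adjusted 0.026), with overlap. The adjusted exact permutation p of the ERH difference was 0.053 with a replicate block and 0.051 without ERH guide 1, batch 1, ERH guide 1, batch 3 or ERH guide 2, batch 2. ERH and SAFB did not differ at the threshold (-0.31, exact permutation p = 0.056).

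The widest separation was between mir-25 and mir-92a. Their ratio was 2.02 to 3.07 in control, 5.65 to 6.87 in SAFB and 1.82 to 3.04 in ERH. The SAFB libraries stood apart from all others, while ERH and control overlapped. The log2 ratio was higher in SAFB by 1.33, or 2.51-fold (exact permutation p = 0.0022, adjusted 0.0058), and differed by 0.16 in ERH (exact permutation p = 0.33). ERH was below SAFB by -1.17 (p = 0.0022, adjusted 0.0058, exact permutation). The entry mir-92a sums the copies of chromosome 14 and chromosome X.

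**Figure D4:**
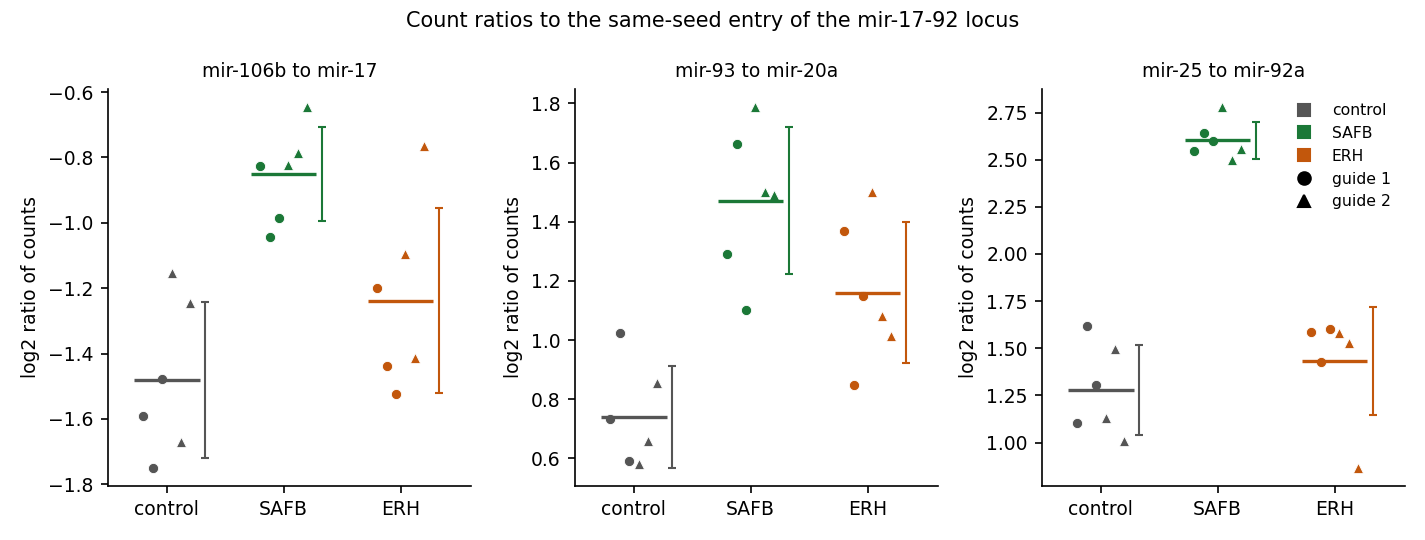
The log2 ratios of mir-106b to mir-17, mir-93 to mir-20a and mir-25 to mir-92a in each library, with bars for the mean and brackets for 1 SD over 6 libraries. In all 3 panels the SAFB libraries lie above every control library, and in the mir-25 panel also above every ERH library.

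**Figure D5:**
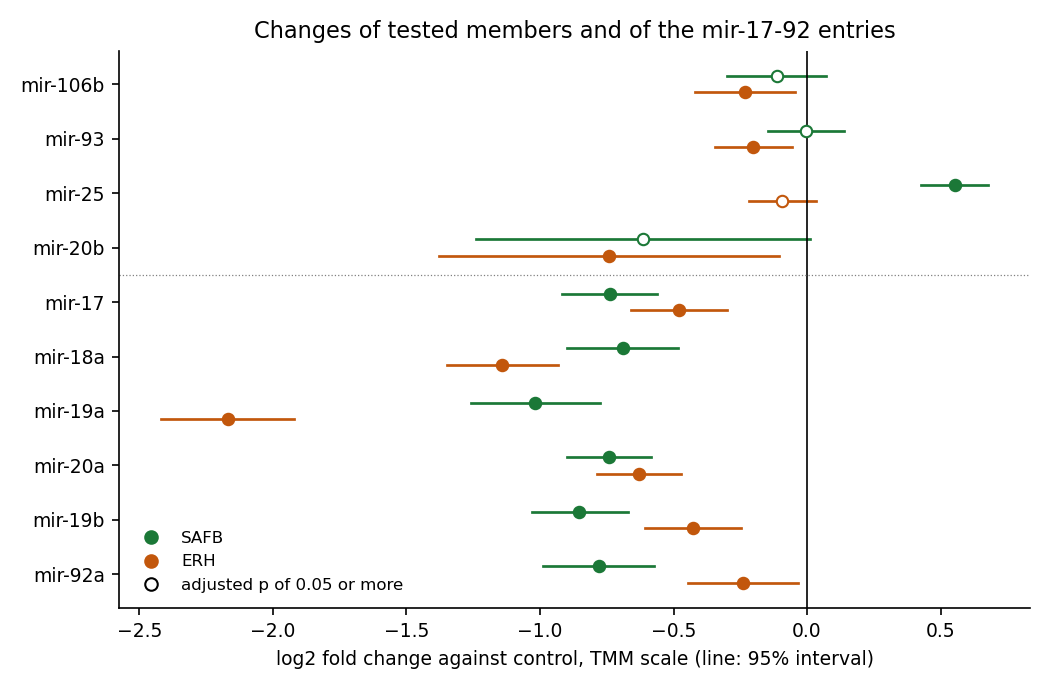
The log2 fold changes against control of the 4 tested members and the 6 mir-17-92 entries on the TMM scale, with lines for 95% intervals and filled symbols for an adjusted p under 0.05. mir-25 in SAFB is the sole point past the threshold to the right of 0, and the mir-17-92 entries lie to its left in both knockouts, although mir-92a in ERH lies above 0 under total counts and spike-ins.

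The makeup of the seed families was described by shares of counts, summed over the entries whose main mature strand carries the seed, with both arms of each hairpin included, and the shares were not tested. mir-106b and mir-93 together supplied 60.2% ± 2.49 (SD, n = 6) of the counts of miR-17-seed entries in control, 71.5% ± 3.43 in SAFB and 66.6% ± 3.59 in ERH. The SAFB libraries, at 66.1% to 75.7%, did not overlap control, at 58% to 64.2%, while ERH, at 61.8% to 71.7%, overlapped both. These entries together averaged 4.1% of all miRNA counts in control, 3.53% in SAFB and 3.97% in ERH. mir-106a and mir-20b together supplied 0.0121%, 0.0108% and 0.0119% of it. Among the entries of the miR-25 and miR-92 seed, mir-25 supplied 68.9% ± 3.26 in control, 84.5% ± 0.923 in SAFB and 71.1% ± 3.95 in ERH. SAFB again stood apart from control, at 83.6% to 86.1% against 65.4% to 73.6%, and ERH, at 63.2% to 73.6%, overlapped control. The entries of this seed took 2.4%, 2.95% and 2.7% of all miRNA counts.

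Entries of that seed at other loci were few. mir-32 averaged 498 CPM in SAFB and 550 in ERH, with log2 differences from control of -0.38 (adjusted p = 0.00048) and -0.24 (adjusted p = 0.017 in edgeR, and above 0 under total counts and spike-ins). Without the population of SAFB guide 2, the SAFB value of mir-32 was -0.19 and its call was lost, while it held in the other 5 of 6 such fits. With entries and TMM factors kept, that call held in 6 of 6, at -0.461 to -0.312. The ERH call of mir-32 held in 2 of 8 settings with all libraries, with RLE size factors at an adjusted p of 0.11. It held in 3 of 18 fits without 1 library (17 of 18 with entries and TMM factors kept) and in 0 of 6 without 1 population (3 of 6 with both kept). mir-92b averaged 1.51 CPM in control, 5.25 in SAFB and 11.7 in ERH, from 1 to 9, 11 to 33 and 19 to 69 counts a library. It reached the level of the low-count filter in 1 of 6 control libraries, 5 of 6 SAFB and 6 of 6 ERH libraries, and so entered the fit through the groups where it is high, and its values are given without a test. It made up at most 0.0728% of the family's counts in any library. mir-367 stayed at or under 0.00133% of them.

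mir-20b ranged from 2.68 to 6.81 CPM in control, 1.67 to 3.75 in SAFB and 1.54 to 3.66 in ERH, on at most 18 counts a library. The groups overlapped. The log2 differences from control were -0.61 in SAFB (adjusted p = 0.089 in edgeR) and -0.74 ± 0.306 in ERH (SE; adjusted p = 0.045), and the ERH call held in 2 of 18 fits without 1 library and in 0 of 6 without 1 population. With entries and TMM factors kept it held in 9 of 18 and in 1 of 6. Over 7 other settings with all libraries it held in 1. RLE size factors gave -0.665 (adjusted p = 0.07 in edgeR) and DESeq2 gave -0.672 (adjusted p = 0.1). Against SAFB, ERH was at -0.13 (adjusted p = 0.78), and at 0.134 under total counts and 0.425 under spike-ins. Against its relative mir-20a its ratio passed no test, with log2 differences of 0.11 in SAFB (exact permutation p = 0.66) and -0.12 in ERH (exact permutation p = 0.65).

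The entries most like each expressed member were those with the highest Pearson correlation of log2 CPM over the 18 libraries, among 111 entries of at least 100 CPM. They describe these libraries, which share genotypes and scaling. For mir-25 they were mir-16 (r = 0.843), mir-140 (0.835) and mir-223 (0.767), of which mir-223 is a myeloid miRNA. A copy of mir-16 is clustered with mir-15a, but the mir-16 entry sums all its gene copies. For mir-93 the most like entries were let-7j (0.815), let-7b (0.797) and mir-674 (0.795), and for mir-106b mir-378a (0.774), mir-21a (0.768) and mir-155 (0.744). The members were left out of these candidates, so a neighbour of the intron could not be among the 3. Between the members themselves r was 0.535 for mir-93 with mir-25, 0.14 for mir-106b with mir-93 and -0.0469 for mir-106b with mir-25.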

How the data were processed

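Small RNA counts of 18 Baf3 libraries were used as the authors deposited them: whole-number counts per miRNA precursor, not normalized, for 1006 miRNA entries and 4 spike-ins. Both arms of a hairpin and all gene copies share an entry. Per the labels' protocols, total RNA was spiked and libraries were made with the QIAGEN QIAseq miRNA kit. The submitters' processing notes name SAMtools. The aligner, counter, build, handling of reads with several matches and use of molecular identifiers are not given in the sources used here, so precision is stated for counting error only.

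Differences between genotypes came from the edgeR package, version 4.0.16 (R 4.3.3), by quasi-likelihood F tests with TMM scaling, filterByExpr at a minimum count of 10 by population, which left 273 entries, a mean per genotype over 18 libraries and Benjamini-Hochberg adjustment over all 273, with calls at an adjusted p under 0.05. Guides were compared in a fit with a mean per population. The SE is the log2 change divided by the square root of F, and CPM are TMM-scaled and computed here. Likeness used log2 CPM with a prior count of 2. Spike-ins stayed out of library sizes and tests. Ratios were compared with exact permutation tests in SciPy 1.17.1. Hairpins were folded with ViennaRNA 2.7.2. Pairs of libraries of a population differed by more than sampling noise (chi-square per degree of freedom 27.53 to 157.1), so none was a copy of another. Each was counted as a library, although this does not make libraries of a shared edited population independent.

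The labels give each library a batch, which pairs libraries across genotypes. Deviations from population means correlated by 0.0279 on average over 45 pairs of a batch and by -0.014 over 90 other pairs, and by 0.0941 and -0.0468 over entries with a mean of at least 100 counts. Deviations within a population cancel over its batches. The value of the other pairs therefore follows largely from that of the same-batch pairs and is no separate baseline.

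The members, lists, pairs and the rule for named entries were chosen with earlier results of these data known. The rule named the members, the mir-17-92 entries, other entries with the same seeds, and the 3 entries most like each member of at least 100 CPM. Alternatives were other scalings (RLE, total counts, spike-ins), DESeq2 1.42.0, other filters, a batch block, summed populations, and leaving out each population or library, with filter and scaling computed again or, as an alternative chosen after seeing the data, kept. On simulated data for SAFB against control, with 603 entries of which 246 were tested, the test called 92.3% of entries changed by 1 on the log2 scale and 100% of those changed by 2. The simulated libraries were drawn independently, without differences between guide populations, unlike the libraries here. Changes smaller than 1, such as that of mir-25, were not simulated.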

Additional observations from a re-analysis of the deposited data

Results flagged for a closer look

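Among 33 groups of 6 libraries checked for a library far from the rest, 3 stood out, all through the ERH library of guide 2, batch 3, and chance gives about 1 in 20 such groups. For mir-106b its log2 CPM was 9.642 beside 9.117 to 9.24 elsewhere in ERH, and this distance made up a fraction 0.765 of the spread of the 6. Its log2 ratio of mir-106b to mir-25 was -4.284 beside -4.945 to -4.773 (fraction 0.74). Its log2 ratio of mir-25 to mir-92a was 0.8674 beside 1.429 to 1.604 (fraction 0.763).

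The changes in the 2 knockouts differed by a direct test for mir-25 and mir-93 and for 4 ratios, given as the log2 value in ERH minus that in SAFB. In edgeR's fit mir-25 differed by -0.65 (adjusted p = 1.8e-08) and mir-93 by -0.20 (adjusted p = 0.029), and the sign for mir-93 turned under total counts and spike-ins, with its call lost in DESeq2 (adjusted p = 0.052). mir-25 kept its call under TMM, RLE and total counts and in DESeq2, and lost it under spike-ins (-0.0954, adjusted p = 0.72). mir-25 and mir-93 were 2 of the 4 members tested, beside 39.6% of all entries called in that comparison. By exact permutation over 6 against 6 libraries, the ratio of mir-25 to mir-93 differed by -0.45, mir-106b to mir-25 by 0.52 and mir-25 to mir-92a by -1.17, each with an adjusted p of 0.0058. The ratio of mir-106b to mir-17 differed by -0.39 (adjusted p = 0.046, exact permutation). That call held in 2 of 12 fits without 1 library, and the value was -0.536 to -0.239 without 1 population.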

How the results depend on the processing

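The rise of mir-25 in SAFB held its direction in all settings run and its call in all but spike-in scaling (0.288), with 0.582 to 0.647 without 1 library and 0.554 to 0.785 without 1 population. These fits computed filter and TMM factors again, and with both kept from the full data (chosen after seeing the data) the ranges were 0.527 to 0.594 and 0.494 to 0.611. The batch block, a fit with a replicate block, gave 0.554 for mir-25 in SAFB. It ended the call of mir-92a in ERH (-0.238), left the ratio of mir-93 to mir-20a in ERH at 0.419 with its call lost and that of mir-25 to mir-93 in ERH at 0.113 with a call gained, and changed no other call of a member or ratio. Against control under total counts, ERH values changed sign for mir-106b (0.0788), mir-93 (0.101), mir-25 (0.211), mir-92a (0.071) and mir-32 (0.0659), and under spike-ins for mir-106b (0.0528), mir-93 (0.092), mir-25 (0.193), mir-92a (0.0395) and mir-32 (0.0572). Against SAFB, under total counts and spike-ins, mir-93 turned to 0.0668 and 0.357, mir-106b to 0.15 and 0.427 and mir-20b to 0.134 and 0.425, and mir-18a turned to 0.0752 under spike-ins. Guide 2 against guide 1 turned under spike-ins to 0.561 and 0.635 for mir-93 and mir-25 in control and 0.649 and 0.606 in ERH, and mir-106b gained calls at 0.714 in control and 0.799 in ERH. Between ERH guides mir-20b was -0.0905 on the TMM scale and -0.0861 to 0.497 over 6 other settings, with no call. Without SAFB guide 1, mir-93 in SAFB was 0.216. The cause of these shifts was not tested.

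Calls over all entries moved with scaling, filter and left-out populations. Total counts gave 33 lower in ERH against 75, and 115 higher and 8 lower in ERH against SAFB where TMM gave 65 and 43. Spike-ins gave 44 higher in SAFB against 84, 91 called and 19 lower in ERH against 147 and 75, 111 higher and 1 lower in ERH against SAFB, 96 called between control guides, all higher in guide 2 (96), and 110 between ERH guides, of which 109 higher. Without a filter 4 entries differed between ERH guides, all 4 lower in guide 2. With a mean of at least 100 counts, fewer entries were tested, with 49 higher in SAFB and 20 lower in ERH against SAFB. Without SAFB guide 2, 38 were lower in SAFB, and without ERH guide 1, 25 were lower in ERH against SAFB.

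Without 1 library, ratios ranged from 0.0805 to 0.135 for mir-25 to mir-93 in ERH, from 0.351 to 0.482 for mir-93 to mir-20a in ERH, from -0.386 to -0.248 for the same pair in ERH against SAFB, with a call gained without ERH guide 2, batch 1, and from -0.482 to -0.33 for mir-106b to mir-17 in ERH against SAFB. The other ERH ratios against control changed no call. They ranged from 0.102 to 0.268 for mir-25 to mir-92a and from -0.239 to -0.101 for mir-106b to mir-25. For mir-106b to mir-17 the range was 0.148 to 0.308, for mir-106b to mir-93 -0.127 to 0.0206 and for mir-20b to mir-20a -0.23 to 0.0261. Without ERH guide 1 or guide 2, ERH against SAFB was -0.239 or -0.536 for mir-106b to mir-17 and -1.28 or -1.06 for mir-25 to mir-92a. With a population left out, 3 against 6 libraries allow no exact p under 0.024, and the ratios that had separated SAFB from control then had an adjusted exact permutation p of 0.056, so these are given as values. Within single batches, mir-25 to mir-93 was 0.412 (batch 2) and 0.649 (batch 3) in SAFB and -0.547 (batch 1) and -0.28 (batch 2) in ERH against SAFB. In batch 1 the ERH differences were -0.371 for mir-106b to mir-93, -0.441 for mir-106b to mir-25, 0.777 for mir-93 to mir-20a, -0.663 for mir-20b to mir-20a and 0.466 for mir-25 to mir-92a, and mir-106b to mir-25 in SAFB was -0.88. In ERH the sign was opposite to that of batch 1 for mir-106b to mir-93 (0.193 in batch 2, 0.0839 in batch 3), mir-106b to mir-25 (0.0605 in batch 2), mir-20b to mir-20a (0.617 in batch 3) and mir-25 to mir-92a (-0.0782 in batch 2, with 0.0775 in batch 3). In batch 2, mir-93 to mir-20a was 0.122 in ERH and -0.617 in ERH against SAFB, and mir-25 to mir-92a in SAFB was 1.01. In batch 3, mir-25 to mir-92a in ERH against SAFB was -1.34. Depth limited the X-chromosome members, with at most 18 counts a library.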
